A study of Mus musculus with 4 samples.

Results

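The angiopoietin and Tie genes were examined in RNA-seq of primary mouse liver sinusoidal endothelial cells (LSECs) given a control siRNA (NC) or siRNA against the long non-coding RNA Airn (siAirn). The members were the rows of the deposited gene table with the symbols Tek, Tie1, Angpt1, Angpt2 and Ptprb, 5 of 18373 genes, and all 5 were in the table. No expression value was used to choose these rows, but the family was picked with earlier results of these data known. Cells were isolated from livers of Balb/c mice aged 8 weeks, plated on collagen and, per the labels, cultured for 24 h and exposed to siRNA for 48 h, at day 3 of culture. The labels name no engineered allele, and by the labels the groups differed only in the siRNA. There were 2 NC and 2 siAirn libraries, called biological replicates 1 and 2. Nothing in the labels says whether these came from separate animals or cultures, so that p-values measure the spread between these libraries, which may be technical. The labels name siAirn1 for both knockdown libraries while the design speaks of 2 separate siRNAs, and it is unclear which siRNA went into which library.

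The angiopoietins are secreted ligands of Tie2, the receptor tyrosine kinase of endothelial cells encoded by Tek. Angiopoietin-1 activates Tie2 and stabilises the vessel wall, and it is made mostly by perivascular cells. Angiopoietin-2 is made by endothelial cells themselves and acts as a weak agonist or an antagonist depending on context. Tie1 binds no angiopoietin with high affinity and modulates Tie2 in a shared complex, and VE-PTP, encoded by Ptprb, removes phosphate from Tie2. Signalling through Tie2 activates AKT, which keeps the transcription factor FOXO1 out of the nucleus, and Angpt2 is a known target of FOXO1.

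In the liver endothelial libraries, Tie1 RNA fell by 32.9% with siAirn (95% confidence interval -43.5% to -20.3%, n = 2 per group), whereas Tek, Angpt2 and Ptprb did not pass the test. With the replicate number as a block, Angpt2 and Ptprb were called too, and so was Tek when length was also corrected. The labels do not say that these numbers pair the samples. Angpt2 was the most abundant member and Angpt1 was close to undetectable in every library. Among the 4 members with counts enough for a test, 1 was called lower and 0 were called higher at an adjusted p under 0.05 (Benjamini-Hochberg over all genes, quasi-likelihood test of edgeR). Over all 13628 genes tested, 16.8% were called, 8.27% higher and 8.56% lower. The median log2 fold change was -0.18 over the 4 members and 0.0013 over all genes tested.

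Promoter sequence was available for the receptor genes Tek and Tie1, 2 of the 5 members, in RefSeq on GRCm38.p6, and is shown because both are endothelial receptor genes, of which Tie1 passed the test and Tek did not. The stretches below hold the core of the ETS factor motif, GGAA or on the other strand TTCC, which is in capitals. ETS factors are transcription factors that act at many endothelial promoters. The Tek stretch is chr4:94739187-94739216 on the plus strand, from 102 to 73 bases before the start of the gene, and the Tie1 stretch is chr4:118490053-118490082 on the minus strand, from 233 to 204 bases before its start.
Tek, ETS core: gcttgttattcaaTTCCtggcctatgagag
Tie1, ETS core: gcGGAAgccactggcTTCCtccctTTCCtg

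In the 250 bases upstream of the start, GGAA on either strand occurred 2 times for Tek and 7 times for Tie1. At least 1 match was present in 93.4% of 32851 promoters of the same length, with a median of 3, and 7 or more were present in 3.82%. The CACCC box, a motif of Kruppel-like factors such as KLF2 and KLF4, is in capitals in the next pair. For Tek it lies in chr4:94739110-94739139 on the plus strand, and for Tie1 in chr4:118489903-118489932 on the minus strand.
Tek, CACCC box: gggatcccaaatgCACCCcagagaacagct
Tie1, CACCC box: gacttccaggccaCACCCatcccgggcttg

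CACCC or its reverse complement GGGTG occurred 1 time upstream of Tek and 2 times upstream of Tie1, and 52.01% of promoters held at least 1. The FOXO motif TGTTTAC, searched on both strands, had 0 matches in either window and was present in 3.17% of promoters. None of the 3 motifs contains another, and a match describes the letters of the window only.

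The estimated counts deposited by the authors summed to between 17308382 and 18371959 per library, and 3 counts, the limit that a count of 0 allows, equalled 0.163 to 0.173 CPM, the count scaled to library size. That limit, like the intervals of count ratios given here, covers counting error only. Airn itself was covered by 7 and 3 counts in NC against 11 and 9 in siAirn, too few for the test. The ratio of siAirn to NC was 2.02 (exact binomial 95% interval 0.903 to 4.83). Without NC replicate 1 it was 3.47 (1.03 to 18.2), and without NC replicate 2 it was 0.49 on the log2 scale (interval of the ratio 0.569 to 3.92). The counts of the siRNA target were thus no lower in siAirn, and whether gene-level counts this low read the knockdown was not tested. Knockdown was also assessed in the study by measurements not analysed here, and directions in the rest of the text are those between libraries so labelled.

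The cells were enriched by a density gradient and anti-CD146 magnetic beads, which select for endothelial cells, before culture. The summed markers of some liver cell types separated the groups as well, while those of stellate cells, platelets and cholangiocytes overlapped. Of 14 pan-endothelial markers 10 were called lower, and their summed level was 11335 to 11907 CPM in NC and 7548 to 8635 CPM in siAirn. Of 12 LSEC markers 9 were called lower, with sums of 3992 to 4019 CPM against 2552 to 2845 CPM. Of 14 stellate cell and fibroblast markers 4 were called higher (1799 to 2176 CPM against 2094 to 2709 CPM), and of 12 tested Kupffer cell and macrophage markers 7 were called lower (248 to 316 CPM against 160 to 192 CPM). Hepatocyte markers summed to 620 to 792 CPM in NC and 860 to 1123 CPM in siAirn, most of it albumin (Alb). Of 10 tested hepatocyte markers 1 was called higher (10%). Over all genes tested, 8.27% were called higher and 8.56% lower, so the hepatocyte share is near the background. Defining LSEC markers were present in every library, among them Fcgr2b at a mean of 489 CPM in NC and 279 CPM in siAirn. Platelet markers summed to 14.9 to 19.1 CPM in NC and 16.9 to 20.0 CPM in siAirn, cholangiocyte markers to 30.4 to 32.1 and 31.8 to 34.1 CPM, and lymphocyte markers to 3.43 to 3.44 and 5.42 to 6.16 CPM, the last without overlap. Those of smooth muscle and large vessels summed to 74.8 to 86.4 CPM in NC and 89.2 to 89.5 CPM in siAirn. None of these marker genes was at 0 in all 4 libraries. In bulk RNA, fewer cells of a type and less RNA per cell cannot be told apart, and the part of cell composition in the results on the Tie genes was not tested.

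Levels of different genes were compared as FPKM, the count scaled to library size and transcript length, since that scale accounts for transcript length. In NC, Angpt2 ranked 231 of 18373 genes by mean FPKM, Tie1 930, Tek 2228, Ptprb 2335 and Angpt1 15951. Angpt2 stood at 351.79 and 334.32 FPKM in NC replicates 1 and 2 and at 335.57 and 267.8 FPKM in siAirn replicates 1 and 2. Tie1 stood at 105.99 and 97.09 FPKM in NC and at 77.74 and 62.11 FPKM in siAirn. Angpt2 was above Tie1, and Tie1 above Tek and Ptprb, in every library, beyond the spread between replicates. Tek and Ptprb, the receptor and the phosphatase that acts on it, lay closer to each other within a library than the replicates of either gene did. Tek had 48.93 and 41.08 FPKM in NC and 45.71 and 38.45 FPKM in siAirn. Ptprb had 46.55 and 39.41 FPKM in NC and 43.3 and 36.15 FPKM in siAirn. The order of the 5 genes was the same in the 4 libraries, and within it Ptprb was a little below Tek each time.

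**Figure D1:**
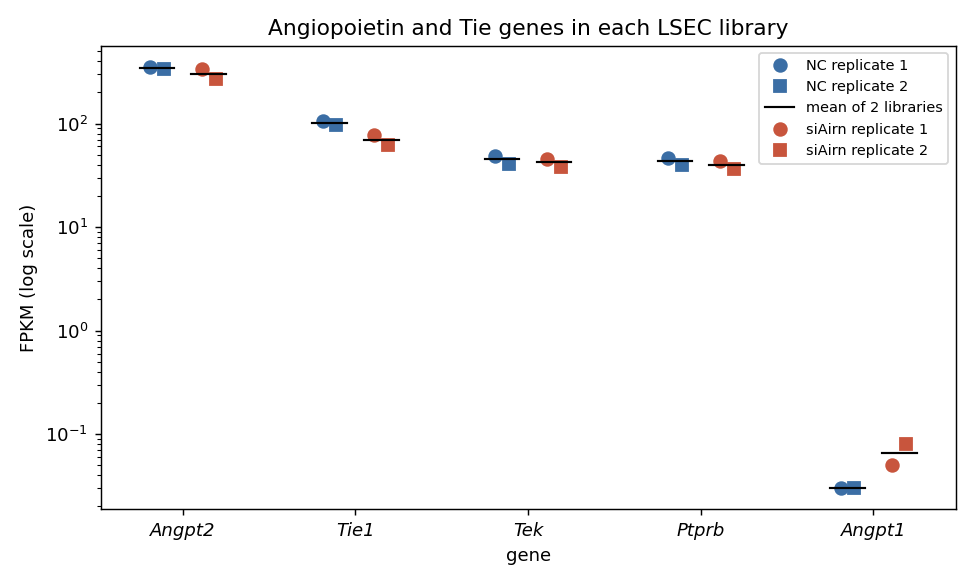
FPKM of the 5 genes in each of the 4 libraries on a log axis, with points for single libraries and bars for the group means. Angpt2 lies highest in every library, at 267.8 to 351.79 FPKM, and Angpt1 lowest, at 0.03 to 0.08 FPKM, and for Tie1 both siAirn points lie below both NC points.

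Among the ligands, Angpt2 had 1224 and 1168 CPM in NC replicates 1 and 2 and 1132 and 914 CPM in siAirn replicates 1 and 2. Both siAirn libraries were below both NC libraries, with siAirn replicate 2 the lowest of the 4. The log2 fold change of Angpt2 was -0.23 (SE 0.10, 95% interval -0.47 to 0.015), with an adjusted p of 0.168 in edgeR's quasi-likelihood test. The size of the difference depended on the siAirn library, being -0.39 without siAirn replicate 1 and -0.079 without siAirn replicate 2. Angpt2 lies within the span of Mcph1 in the GENCODE M21 annotation, but none of its exonic bases are under exons of another gene.

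Angpt1, the activating ligand, had 2 counts in each NC library and 4 and 6 counts in the siAirn libraries, which the authors' FPKM lists as 0.03, 0.03, 0.05 and 0.08. These counts were too low for the test across genes. The ratio of siAirn to NC was 2.53 with an exact binomial 95% interval of 0.729 to 11.03, so no difference was detectable at this depth, and it ranged from 2.01 to 3.05 when each library was left out in turn. Exons of Gm17473 on the opposite strand cover 14.2% of the exonic bases of Angpt1 in GENCODE M21, and the use of strand in counting is not given in the sources used here, which adds to the uncertainty of such low counts. Angpt4, the further ligand of Tie2 in mouse, had 0 counts in every library.

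Angpt2 thus exceeded Angpt1 by far in these cultures, with ratios in FPKM of 11726 and 11144 in NC and 6711 and 3348 in siAirn. The ratios rest on the 2 to 6 counts of Angpt1 per library. On a log2 scale the siAirn libraries were lower by 1.27 on average, and the exact permutation p was 0.333, two-sided, the smallest that 2 against 2 libraries allow.

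Of the receptors, Tie1 had 405 and 373 CPM in NC and 288 and 233 CPM in siAirn. The groups did not overlap, and the gap between the lower NC library and the higher siAirn library was wider than the gap between replicates of either group. The mean was 389 ± 22.9 CPM in NC and 261 ± 38.7 CPM in siAirn (SD, n = 2 each). The log2 fold change of Tie1 was -0.58 (SE 0.10, 95% interval -0.82 to -0.33), with an adjusted p of 0.0168 in edgeR's quasi-likelihood test. Tie1 also passed a rule of a fold change over 1.4 with an unadjusted p under 0.05, which 9.96% of all genes tested passed, 5.25% higher and 4.72% lower. The direction was lower under each alternative, but the call was lost without NC replicate 1 (-0.52, adjusted p 0.107) and without NC replicate 2 (-0.64, adjusted p 0.113), where 1 NC library is assumed to vary as the siAirn libraries do. Without NC replicate 1 and without NC replicate 2, respectively, the quasi-likelihood test of edgeR called only 40 and 0 genes of the whole table, and 3506 and 3106 had an unadjusted p under 0.05.

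Tek, the gene of the signalling receptor Tie2, had 205 and 173 CPM in NC and 195 and 169 CPM in siAirn. The groups overlapped, since siAirn replicate 1 lay above NC replicate 2. The mean was 45.0 ± 5.55 FPKM in NC and 42.1 ± 5.13 FPKM in siAirn (SD, n = 2 each). The log2 fold change of Tek was -0.054 (SE 0.11) and the adjusted p was 0.755 in edgeR's quasi-likelihood test. The 95% interval, -0.30 to 0.20, covers changes from 19.0% lower to 14.5% higher, so a change within these bounds cannot be told from none. Its sign turned to 0.071 without NC replicate 1 and to 0.048 without siAirn replicate 2.

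Ptprb, the phosphatase, had 560 and 476 CPM in NC and 511 and 432 CPM in siAirn, and the groups overlapped. Its log2 fold change was -0.14 (SE 0.11, 95% interval -0.39 to 0.12), with an adjusted p of 0.411 in edgeR's quasi-likelihood test. With a correction for transcript length the value for Ptprb was -0.41, with an adjusted p of 0.0532 in the same test. With the replicate number as a block Ptprb was called, at -0.14, and at -0.42 when length was corrected as well. Its transcript, at 11957 bases by the ratio of count to FPKM, falls in the longest of 5 equal bins of genes, whose median log2 fold change was 0.20, whereas that of the shortest bin was -0.17.

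**Figure D2:**
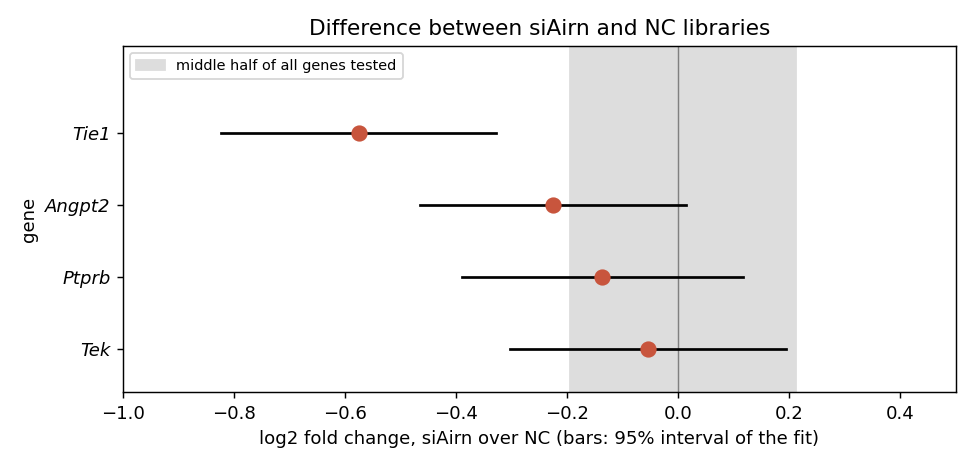
Log2 fold change of siAirn over NC for the 4 tested genes with 95% intervals from edgeR's quasi-likelihood test, over a grey band that spans the middle of all genes tested, from the lower quartile of -0.20 to the upper quartile of 0.21. The interval of Tie1, -0.82 to -0.33, lies wholly below 0, and those of Tek, Angpt2 and Ptprb include 0.

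Of the 4 tested members, 2 had no overlap between the groups in CPM, Tie1 and Angpt2, both lower in siAirn. In FPKM the groups of Angpt2 overlapped, at 334.32 FPKM in NC replicate 2 and 335.57 FPKM in siAirn replicate 1. Such separation was present in 62.7% of all genes tested, 31.9% lower and 30.9% higher, so the share among the members is near the background. For all 4 genes replicate 1 was above replicate 2 within each group. The log2 gap was 0.25 in NC and 0.21 in siAirn for Tek, 0.12 and 0.30 for Tie1, 0.067 and 0.31 for Angpt2, and 0.24 and 0.24 for Ptprb.

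The balance of the receptors was followed as the ratio of Tie1 to Tek within each library. It was 2.17 and 2.36 in NC and 1.70 and 1.62 in siAirn, so the groups did not overlap. The mean log2 ratio was lower by 0.45 in siAirn, more than the spread between replicates in either group (SD 0.089 in NC and 0.053 in siAirn, n = 2 each). The exact permutation p was 0.333, two-sided, the smallest possible here. The ratio of Ptprb to Tek was 0.951 and 0.959 in NC and 0.947 and 0.940 in siAirn, a difference of -0.018 on the log2 scale with the siAirn libraries just below the NC libraries. That of Angpt2 to Tek was 7.19 and 8.14 in NC and 7.34 and 6.96 in siAirn, and the groups overlapped. In CPM, which is not scaled to length, the groups did not overlap for either ratio, and the log2 difference was -0.084 for Ptprb to Tek and -0.18 for Angpt2 to Tek.

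The transcript length that relates count to FPKM for Tek was 4152 and 4145 bases in NC and 4350 and 4422 bases in siAirn, 5.74% longer on average. It is an estimate of the mix of isoforms made by the counting tool, and a shift of this size or larger was present in 349 of 6426 genes with an FPKM of at least 10 (5.43%). The shift was -0.15% for Angpt2, 1.01% for Ptprb and -0.0031% for Tie1. With the length left in, the ratio of Tie1 to Tek fell by 0.53 on the log2 scale in CPM, against 0.45 per length in FPKM.

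**Figure D3:**
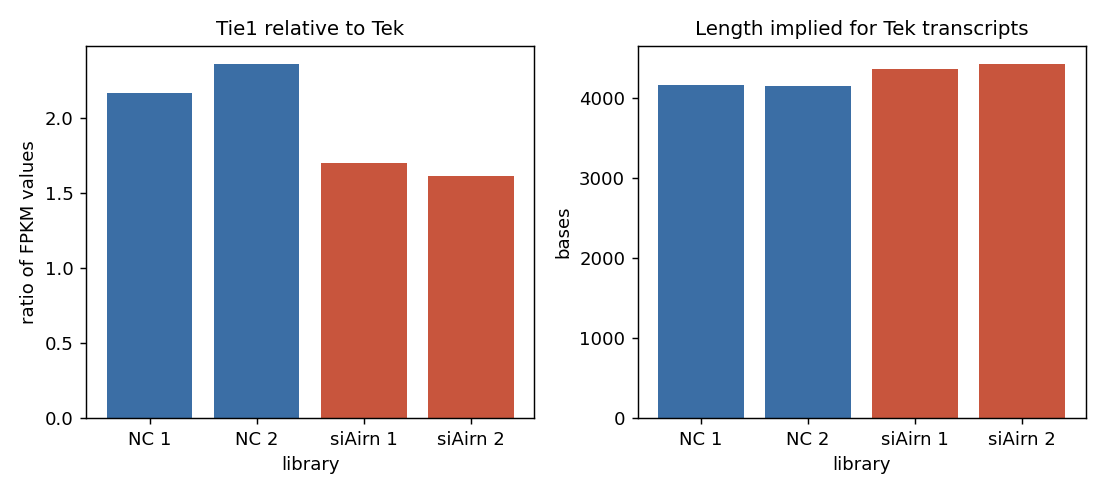
Bars for the 4 libraries, with the ratio of Tie1 to Tek in FPKM on the left and the transcript length in bases implied for Tek on the right. The ratio is 2.17 and 2.36 in NC and 1.70 and 1.62 in siAirn, and the length is 4145 to 4152 bases in NC and 4350 to 4422 bases in siAirn.

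Genes with the most similar profile to each member were found as those with the smallest root mean square difference in centred log2 CPM over the 4 libraries, with 10478 genes of 5 CPM or more on average searched. For Tie1 these were Ldb2, Egfl7 and Rnf157, with log2 fold changes of -0.58, -0.60 and -0.55, which the choice of the nearest profiles fixes. Egfl7 is itself one of the pan-endothelial markers. For Tek they were Nt5c, Stim2 and Ankrd16, for Angpt2 they were Cdr2l, Abca7 and Stradb, and for Ptprb they were Ifi44, Itpkb and Gtf2e2. This likeness rests on 4 libraries and is given as a description.

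The wider pathway was read from 7 lists of 111 genes, of which 103 were tested and 24 were called (23.3%, against 16.8% of all genes), 10 higher and 14 lower. Their median log2 fold change was 0.067. Cdh5, Pecam1, Erg, Sox18, Kdr and Flt1 are also in the pan-endothelial marker list and Flt4 in the LSEC list. Pdgfrb and Pdgfra are also in the stellate cell and fibroblast list. The values of all these genes are thus not separate from those of the markers. The count was 14 after the correction for transcript length and 13 after that for GC content and length, where the calls over the whole table were 1292 and 1024. Without either NC library it was 0, although 28 and 39 genes had an unadjusted p under 0.05 in the quasi-likelihood test of edgeR. Without siAirn replicate 2 it was 14, where the whole table had 1446 calls among 13910 genes against 2294 among 13628, and among the genes named in the following, the calls of Jup, Akt1, Pdk4, Gadd45a, Ptprk, Fgfr1, Fgfr2, Ets1, Erg and Elk3 were lost. It was 16 with limma on log2(FPKM + 1) and a filter, with 1743 calls among 11667 genes of the table, where those of Jup, Akt1, Elk3, Erg, Fgfr2, Gadd45a, Ptprf, Ptprg and Ptprk were lost. The medians of the lists given next also moved with the settings.

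Among 13 tested ligands and partners of Tie2, 6 were called (46.2%, against 16.8% of all genes), 1 higher and 5 lower. Their median log2 fold change was -0.12. This median was -0.230 to -0.0758 over the settings with all libraries and -0.188 to -0.0624 with a library left out. Cdh5, the gene of VE-cadherin, the adhesion molecule of endothelial junctions and a partner of VE-PTP, had 2625 and 2322 CPM in NC and 1794 and 1524 CPM in siAirn. Its log2 fold change was -0.58, and edgeR's quasi-likelihood test gave an adjusted p of 0.0134. Pecam1, a junctional adhesion molecule, changed by -0.53, and Jup, the junction protein plakoglobin, by -0.31, a call lost when GC content and length were both corrected. Adam10 and Mmp14 encode cell surface proteases and changed by -0.50 and -0.48. Itgav, an integrin chain, was the one gene called higher, at 0.60, and its call was lost with the correction for length (0.39). Svep1, a matrix protein that binds Tie1, was at 0.817 and 0.995 CPM in NC and 2.05 and 1.98 CPM in siAirn, with a log2 fold change of 1.14 that did not pass (adjusted p 0.0594, edgeR's quasi-likelihood test).

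Of 27 genes of signal transduction from Tie2 to PI3K, AKT, MAPK and the small GTPases, 3 were called (11.1%, against 16.8% of all genes). The median log2 fold change was 0.035, or -0.0251 to 0.127 over the settings with all libraries. Mapk3, which encodes the kinase ERK1, changed by -0.38 and Akt1 by -0.21, while the scaffold gene Iqgap1 changed by 0.35. The adjusted p of Akt1 was 0.0488 by edgeR's quasi-likelihood test, the nearest of these to the threshold, and with the correction for length the calls of Akt1 and Iqgap1 were lost, at -0.19 and 0.12. Mapk3 lost its call when GC content and length were both corrected, at -0.19, where Akt1 was at -0.061. Foxo1, the factor that AKT keeps from the nucleus, had 75.2 and 71.9 CPM in NC and 70.9 and 58.7 CPM in siAirn, and its value of -0.18 did not pass (adjusted p 0.232, edgeR's quasi-likelihood test). Rhoa was the most abundant gene of this list, at a mean of 342 FPKM in NC and 339 FPKM in siAirn.

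Of 15 genes known as FOXO targets, 2 were called higher and 1 lower (20%, near the 16.8% of all genes). The median was 0.13, or 0.0265 to 0.172 over the settings with all libraries. Irs2, an adaptor of the insulin receptor, changed by 0.56 and Pdk4, a mitochondrial kinase that restrains pyruvate dehydrogenase, by 0.31. Gadd45a, a stress response gene, changed by -0.34. All 3 calls were lost with the correction for length, at 0.33 for Irs2, 0.27 for Pdk4 and -0.19 for Gadd45a. Irs2 kept its call under the separate correction for GC content and length. Txnip, an inhibitor of thioredoxin, had the highest FPKM of the list as a mean over all 4 libraries, but in NC Gadd45a was higher (89.3 against 84.1 FPKM). Txnip had 226 to 230 CPM in NC and 252 to 259 CPM in siAirn, and its value of 0.16 did not pass (adjusted p 0.11, edgeR's quasi-likelihood test).

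Angiopoietin-like proteins share the fold of the angiopoietins but do not bind Tie receptors, and 0 of 4 tested genes were called by edgeR's quasi-likelihood test, with 1 at an unadjusted p under 0.05 and 1 called by DESeq2. Angptl4, an inhibitor of lipoprotein lipase, was the most abundant, at 212 and 240 CPM in NC and 264 and 336 CPM in siAirn. Both siAirn libraries were above both NC libraries, and the log2 fold change of 0.41 did not pass (adjusted p 0.0587, edgeR's quasi-likelihood test). It passed with the correction for length (0.49, adjusted p 0.0463 in the same test), with the likelihood-ratio test and with the replicate block. Without siAirn replicate 1, which leaves 1 siAirn library, its value was 0.57. Angptl1 had 0 counts in every library.

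The relatives of Ptprb among the receptor tyrosine phosphatases had 3 of 8 tested genes called (37.5%, against 16.8% of all genes), all higher. Their median was 0.45, which was 0.0982 to 0.454 over the settings with all libraries. Ptprf changed by 0.69, Ptprg by 0.52 and Ptprk by 0.52. Ptprf was low, at 1.93 FPKM in NC and 3.07 FPKM in siAirn. Ptpra was the most abundant of the list, at a mean of 30.6 FPKM in NC and 31.5 FPKM in siAirn. Its value of 0.083 did not pass (adjusted p 0.401, edgeR's quasi-likelihood test). The 3 calls were lost with the correction for length, at 0.48, 0.27 and 0.36. Ptprf kept its call under the separate correction for GC content and length. Ptprj, which like VE-PTP belongs to the R3 subtype and is a partner of VE-cadherin, had overlapping groups and a value of 0.46 (adjusted p 0.155, edgeR's quasi-likelihood test).

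Of 20 other receptor tyrosine kinases, 2 were called lower and 2 higher (20%, near the 16.8% of all genes). The median was 0.19, and it was -0.00082 to 0.278 over the settings with all libraries. Flt4, the receptor for VEGF-C, had 548 and 531 CPM in NC and 379 and 342 CPM in siAirn, and its log2 fold change of -0.58 was close to that of Tie1. Ephb4, the receptor of ephrin-B2 and a marker of veins, changed by -0.52. Fgfr2 and Fgfr1 changed by 0.51 and 0.43, and both calls were lost with the correction for length, at 0.39 and 0.31. Kdr, the main VEGF receptor, had the highest FPKM of the list as a mean over all 4 libraries, but in NC Ephb4 was higher (97.6 against 94.9 FPKM). The groups of Kdr overlapped, at 630 and 552 CPM in NC against 647 and 552 CPM in siAirn. Its log2 fold change of 0.021 (adjusted p 0.901, edgeR's quasi-likelihood test) turned to -0.17 with the correction for length.

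The next list held 19 tested transcription factors known to act on the angiopoietin and Tie genes or on endothelial genes in general. Of these, 4 were called lower and 1 higher (26.3%, against 16.8% of all genes), with a median of -0.18. That median was -0.189 to -0.0841 over the settings with all libraries and -0.214 to -0.0542 with a library left out. Klf4, a flow-responsive factor, had 16.0 and 13.0 CPM in NC and 7.97 and 8.25 CPM in siAirn, a change of -0.84. Sox18, a factor of vascular and lymphatic development, had 149 and 155 CPM in NC and 91.5 and 79.7 CPM in siAirn, a change of -0.83. The ETS factor genes Erg and Elk3 changed by -0.44 and -0.28 and Ets1 by 0.34, and the calls of Erg and Ets1 were lost with the correction for length, at -0.46 and 0.19. Klf2 had 14.7 and 13.4 CPM in NC and 12.4 and 12.2 CPM in siAirn, and its value of -0.19 did not pass (adjusted p 0.284, edgeR's quasi-likelihood test). Tcf4 had the highest FPKM of the list as a mean over all 4 libraries. Sox18 was above it in NC (99.9 against 83.9 FPKM), and Ets1 and Hif1a in siAirn (87.1 and 84.1 against 77.8 FPKM). The value of Tcf4, -0.23, did not pass (adjusted p 0.0621, edgeR's quasi-likelihood test). Tcf4 passed with the correction for length (-0.37, adjusted p 0.0237) and with that for GC content and length (-0.54, adjusted p 0.00977).

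**Figure D4:**
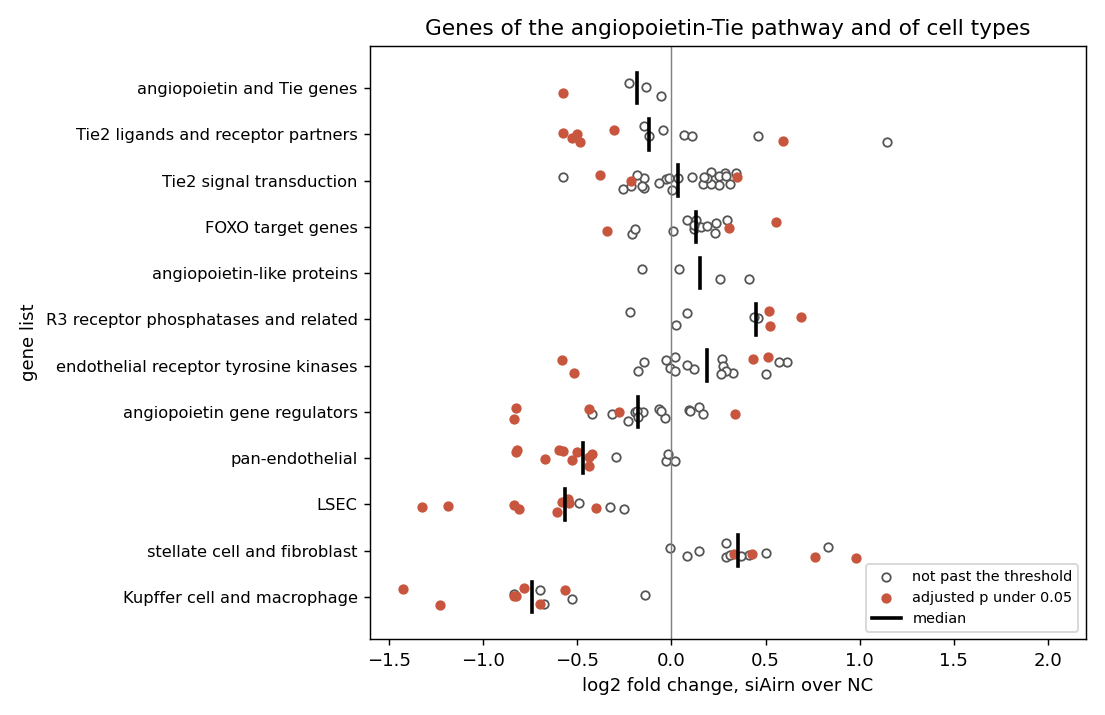
Log2 fold change of siAirn over NC for each tested gene of the 8 pathway lists and of 4 cell type marker lists, with a bar at each median and filled points for genes with an adjusted p under 0.05. The medians are -0.18 for the angiopoietin and Tie genes, 0.45 for the receptor phosphatases, -0.47 for pan-endothelial markers and -0.57 for LSEC markers.

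Some exonic bases of genes named here lie under exons of another gene on the opposite strand in GENCODE M21, 19.1% for Gadd45a, 19.4% for Txnip, 13.9% for Svep1, 7.78% for Foxo1, 6.95% for Elk3 and 5.90% for Itgav, and their counts are uncertain to that extent. For Tie1, Tek, Angpt2 and Ptprb the share is 0. The GC content of Tie1 was 57.6%, in the highest of 5 equal bins of genes, whose median log2 fold change was -0.14. The value of Tie1 was -0.58 against that median, and it was called with the corrections for length and for GC content and length too.

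**Figure D5:**
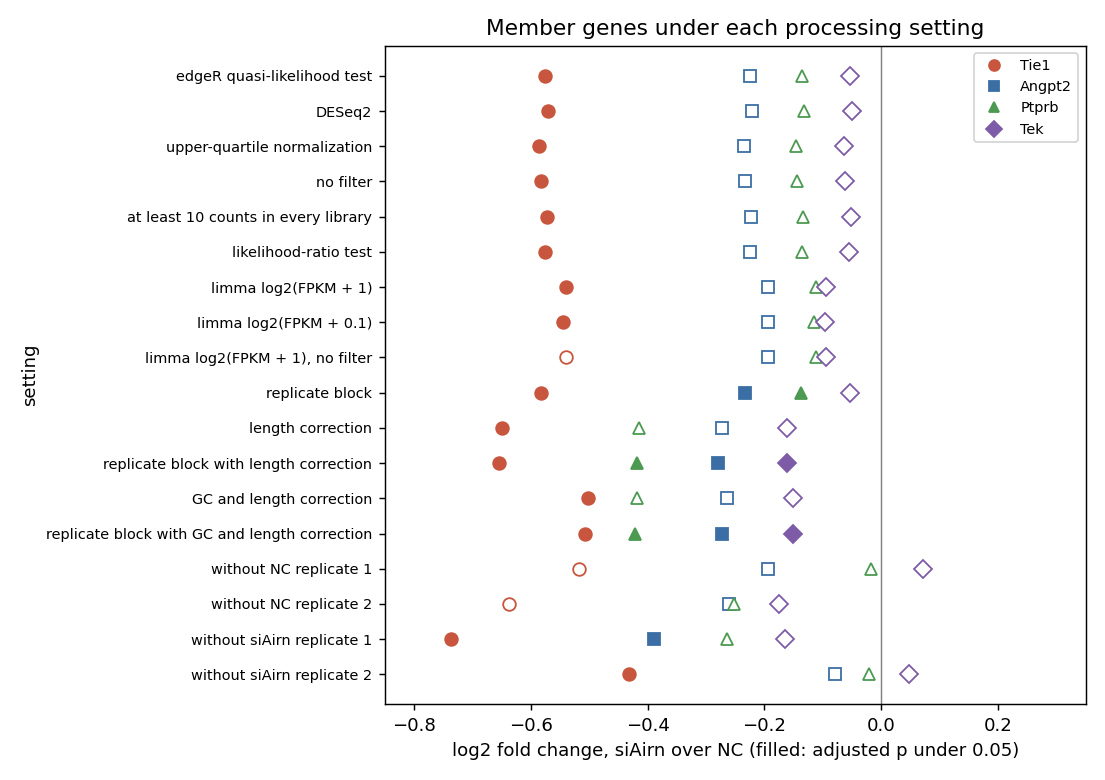
Log2 fold change of siAirn over NC for Tek, Tie1, Angpt2 and Ptprb under each setting of the analysis, with filled points where the adjusted p was under 0.05. Tie1 lies between -0.74 and -0.43 in all settings, Tek between -0.17 and 0.071.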

How the data were processed

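RNA-seq was read from 2 NC and 2 siAirn libraries, single-end at 50 bases. The authors deposited 1 table with an estimated count and a length-scaled value per gene and library. These deposited values are read as FPKM computed by the authors, scaled to transcript length and library size, since the header names no unit. The submitters' processing notes name BWA, Bowtie2 and RSEM, and the build hg19, although the samples are mouse. Whether hg19 is the build behind these mouse values is not settled, and strand use is not given in the sources used here, so coordinates are given only for the RefSeq promoter stretches. The authors' group means were not used.

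Counts, some of which were deposited with decimals, were rounded. In R 4.3.3, edgeR 4.0.16 filtered genes (filterByExpr), scaled libraries by TMM (factors 0.985 to 1.02) and compared the groups by its quasi-likelihood test without covariates, with Benjamini-Hochberg adjustment over 13628 genes. The common biological coefficient of variation was 0.0754. Genes failing the filter are given as count ratios with exact binomial intervals. Ratios between members were compared by exact permutation. The alternatives were DESeq2 1.42.0, upper-quartile scaling, other filters, the likelihood-ratio test, and limma 3.58.1 on log2(FPKM + 1) and log2(FPKM + 0.1). Further ones were a replicate block, corrections for transcript length and for GC content and length, and leaving out each library. The correction for length alone used the length implied by count and FPKM. That for GC content and length used the longest GENCODE M21 transcript of each gene, known for 94.7% of genes. These corrections thus differ in the length measure and the gene set as well as in GC content. The procedures were also run on counts simulated at the common biological coefficient of variation. These had no shift shared by replicate number and no trend with length or GC content. That run does not show how the procedures handle such features.

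The members and gene lists were chosen with earlier results of these data known. Genes named are the members, the 3 nearest in profile to each tested member, and from each pathway list the called genes of at least 5 CPM (up to 4 per direction) and the most abundant one, with Airn, Foxo1, Angpt4, Svep1, Klf2, Cdh5, Kdr and the most abundant markers. Other genes in the text (Jup, Ptprj, Angptl1, Mcph1, Gm17473, Hif1a, Pdgfra, Pdgfrb) were added after their values were seen.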

Additional observations from a re-analysis of the deposited data

How the results depend on the processing

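Among the settings that kept all libraries, Tie1 was lower and called in 13 of 14, the exception being limma on log2(FPKM + 1) with no filter (-0.54, adjusted p 0.109), which called 0 genes of the whole table, 0 of the pathway and 0 members, against 4418 genes at an unadjusted p under 0.05. Leaving out each library gave -0.74 to -0.43 for Tie1, -0.17 to 0.071 for Tek (0.071 without NC replicate 1 and 0.048 without siAirn replicate 2), -0.39 to -0.079 for Angpt2 and -0.26 to -0.017 for Ptprb, with 0 to 2 members, 0 to 41 pathway genes and 0 to 2410 genes of the table called. The replicate numbers are shared between groups but the labels do not say that they pair the samples, and the deviations of same-numbered libraries correlated at 0.353 over 10745 genes, with 2 pairs. With the replicate number as a block, 4841 genes, 57 pathway genes and 3 members were called, Angpt2 at -0.23 and Ptprb at -0.14 beside Tie1. With the replicate block and a length correction, 4162 genes, 49 pathway genes and 4 members were called, with Tek at -0.16, Angpt2 at -0.28 and Ptprb at -0.42. With the replicate block and a correction for GC content and length, chosen after seeing the data, these were 4070, 53 and 4, with Tek at -0.15, Angpt2 at -0.27 and Ptprb at -0.42. The length correction alone called 1292 genes and 14 of the pathway, that for GC content and length 1024 and 13, the likelihood-ratio test 3140 and 38, and a fold change over 1.4 with an unadjusted p under 0.05 gave 1358 genes. In CPM the ratio of Ptprb to Tek differed by -0.084 on the log2 scale. The sign changed for Rhoa and for Kdr. Rhoa was at 0.045 with the length correction, 0.046 with the block and that correction, and -0.064 to 0.032 without each library. With the block and the correction for GC content and length it was at -0.18, called lower. Kdr was at -0.17 and -0.17 with the length correction without and with the block, called with it. With the correction for GC content and length, without and with the block, Kdr was at -0.10 and -0.10. Kdr was at -0.098 to 0.13 without each library, of which -0.073 without NC replicate 2. The cause of these changes was not tested. Depth left Angpt1 and Airn, with at most 11 counts per library, untested.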
